A study of Mus musculus with 3 samples.

Results

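The 10 genes Serpinb1a, Il17re, Tmem176a, Tmem176b, Actn2, Asb2, Krt83, Nebl, Ly6g5b and Podnl1 were followed across T cells sorted from mouse melanomas. They are 10 of the 14811 genes in the deposited count table and were taken by name. Their names came from earlier results on the same cells, in which Serpinb1a and Il17re led a group of Cd4 cells. Their difference between Cd4 and Cd8 cells, and their tendency to be found together, are therefore described here and not tested.

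The cells came from 1 pool of untreated tumors of 10 mice. B16F10, a transplantable mouse melanoma line, was implanted under the skin. On day 1 purified T cells were injected into a vein, CD4 cells of CD45.1 type or CD8 cells of CD45.2 type, CD45 being a surface protein whose allele marks the donor. Tumors were resected on day 11. The T cells were sorted into 4 populations, namely CD45.1 cells with CD4 alone or with both co-receptors and CD45.2 cells with CD8 alone or with both. Strain, age and sex of the mice are not given in the sources used here.

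Each population was given a hashtag, the populations were pooled, and about 6200 cells were loaded for 1 droplet library that reads the 5′ end of transcripts. The table held 5564 cells and 26763131 UMIs (unique molecular identifiers, each counting 1 captured RNA molecule), from 501 to 23946 per cell with a median of 3869. The authors' annotation gives each cell a Cd4 or Cd8 identity, a mark for cells called double positive (Tdp) and a hashtag number from 1 to 4. This makes 4 classes, the Cd4 class with 2477 cells, Cd4-identity Tdp with 93, Cd8-identity Tdp with 313 and the Cd8 class with 2681. The labels do not tie a hashtag number to a sorted population, so the numbers serve only to show spread within the pool. They stand for different sorted populations and are not repeats of 1 population. Every number held cells of all 4 classes, with Cd4 class cells from 202 in number 3 to 1137 in number 1. T cell markers (8 genes such as Cd3e) were found in 95.6% to 100% of the cells of each class, and Cd3e alone in 91.6% of the Cd8 class and 96.7% of the Cd4 class.

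Because all cells come from 1 pool in 1 library, no difference has a check in replicate animals and no p-value is given. A level is the sum of a gene's UMIs over a group of cells per 1000000 UMIs (CPM). Intervals in brackets are exact 95% intervals, Poisson for levels, conditional binomial for ratios and Clopper-Pearson for shares of cells. They cover counting error only. A gene with 20 or more UMIs in the groups compared was measured, and it was called higher or lower when the levels differed by at least 1.5-fold and the interval of the ratio left out 1. In a sum over cells, fewer cells with a transcript and less of it per cell cannot be told apart, so shares of cells stand beside the main levels.

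As background, Il17re encodes a chain of the receptor for IL-17C, which works as a pair with the shared chain encoded by Il17ra, and it is known in epithelium and in type 17 T cells. Type 17 T cells are those that can make IL-17A, encoded by Il17a. Serpinb1a encodes an intracellular inhibitor of neutrophil serine proteases. Tmem176a and Tmem176b encode related 4-pass membrane proteins known in some lymphocytes and in dendritic and other myeloid cells. Actn2 (an alpha-actinin) and Nebl (nebulette) encode actin-binding proteins best known from the Z-disc of striated muscle. Asb2 encodes a substrate receptor of a cullin ubiquitin ligase that targets filamins. Krt83 encodes a hair keratin, Ly6g5b a member of the Ly6 superfamily, and Podnl1 a small leucine-rich repeat protein related to podocan.

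The genes lie on 7 chromosomes of the mouse genome (GRCm38.p6, RefSeq). Serpinb1a (chr13:32842092-32853206) and Actn2 (chr13:12269426-12340732) share chromosome 13 but lie far apart. Il17re (chr6:113458699-113470758) lies on chromosome 6 with Tmem176a (chr6:48841483-48845364) and Tmem176b (chr6:48833811-48845948). The last 2 are neighbours on opposite strands whose annotated spans overlap, so how the authors' counting assigned reads there bears on both. Asb2 spans chr12:103321142-103356001, Krt83 chr15:101485130-101491512, Nebl chr2:17342673-17734949, Ly6g5b chr17:35113944-35118558 and Podnl1 chr8:84125928-84142991. Krt83 and Serpinb1a belong to families of near-identical copies, so their counts could include or lack reads shared with a copy. Of the copies of Serpinb1a, Serpinb1b had 7 UMIs in the Cd4 class, against 700 of Serpinb1a.

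Tmem176a and Tmem176b are shown first, since they were the pair most often found in the same cell. Facing RefSeq starts at 48841483 (Tmem176a, plus strand) and 48841374 (Tmem176b, minus strand, where other transcripts start farther on) leave 108 bases between them, with 63.9% G or C. The stretch chr6:48841375-48841482 is given 5′ to 3′ on the plus strand, in lower case throughout because no motif was marked in it.
Tmem176b to Tmem176a: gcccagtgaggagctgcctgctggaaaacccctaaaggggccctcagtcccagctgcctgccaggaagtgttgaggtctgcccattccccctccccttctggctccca

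RefSeq promoter windows were matched for 7 of the 10 genes, 15 windows in all, and searched on both strands. TGANTCA (the AP-1 element) occurred in 1 of the 15 windows, of Nebl, against 7.81% of 32851 windows of the same length. TGTGGT (the RUNX element) occurred in 3, of Actn2, Asb2 and Nebl, against 16.8%. These are letter matches only.

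All 10 genes were higher in the Cd4 class than in the Cd8 class, from 3.78-fold for Nebl to 31.1-fold for Il17re. In this comparison 6.55% of the 11643 genes measured were higher, and since the genes were chosen on it nothing is read from their count. The median log2 ratio was 1.96 over the 10 genes and 0.01 over all measured. Il17re, the IL-17C receptor chain, stood at 23 CPM (20.2 to 26.1) in the Cd4 class and 0.739 CPM (0.355 to 1.36) in the Cd8 class. The ratio was 31.1-fold (16.6 to 65.7), and its UMIs were in 8.03% of Cd4 class cells against 0.373% of Cd8 class cells, whose median depths were 3478 and 4159 UMIs. Il17re was thus rarely found in Cd8 class cells although these were sequenced more deeply.

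Serpinb1a, the protease inhibitor, stood at 65.4 CPM (60.7 to 70.5) in the Cd4 class and 8.21 CPM (6.75 to 9.88) in the Cd8 class, 7.97-fold (6.52 to 9.83). It was found in 17.5% and 2.91% of their cells. Asb2, the ubiquitin ligase receptor, was 8.30-fold higher (6.97 to 9.95), at 89.6 against 10.8 CPM. These were the largest ratios of the set after Il17re.

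The Ly6 family gene Ly6g5b was 6.13-fold higher (4.99 to 7.59), Podnl1 6.57-fold (5.44 to 8.0) and the keratin gene Krt83 4.99-fold (3.9 to 6.46). Among the actin-binding genes, Actn2 stood at 113 against 29.9 CPM, 3.79-fold (3.39 to 4.25). Nebl stood at 62.9 against 16.6 CPM, 3.78-fold (3.25 to 4.42). Actn2 had the widest reach of the set, with a UMI in 27.0% of Cd4 class cells, and it was also the most often found in Cd8 class cells, at 11.3%.

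Tmem176b was the most abundant in the Cd4 class at 136 CPM, against 35.8 CPM in the Cd8 class, 3.80-fold (3.42 to 4.22). Tmem176a stood at 93.3 against 22.3 CPM, 4.18-fold (3.67 to 4.77). In the Cd8 class most of these transcripts lay in few cells. Cells marked by 2 or more UMIs of macrophage genes (leaving out Ccr2 and Ly6c2, which T cells express) or dendritic cell genes, a mark chosen after the data were seen, made up 12.6% of the Cd8 class and held 84.1% of its Tmem176a UMIs and 78.7% of its Tmem176b UMIs.

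Those Cd8 class cells had 93.1 CPM of Tmem176a and 140 CPM of Tmem176b, and the remaining Cd8 class cells had 4.45 and 9.54 CPM. In the Cd4 class such cells made up 4.97% and did not stand out, with 85.2 and 117 CPM of the pair against 94.3 and 138 CPM in the rest. Without them in both classes, Tmem176a was 21.2-fold higher in the Cd4 class (15.9 to 29.0) and Tmem176b 14.5-fold (11.8 to 17.9). The order of the ratios thus changed, with the pair following Il17re at 45-fold (20.4 to 124). For the other 7 genes the ratios without these cells lay between 3.46-fold (Nebl) and 9.68-fold (Asb2). Over the whole lists, 11 of 12 macrophage genes and 9 of 10 dendritic cell genes were lower in the Cd4 class, with sums of 1226 against 2719 CPM and 601 against 1657 CPM, and 7 of 7 NK cell genes were lower.

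**Figure D1:**
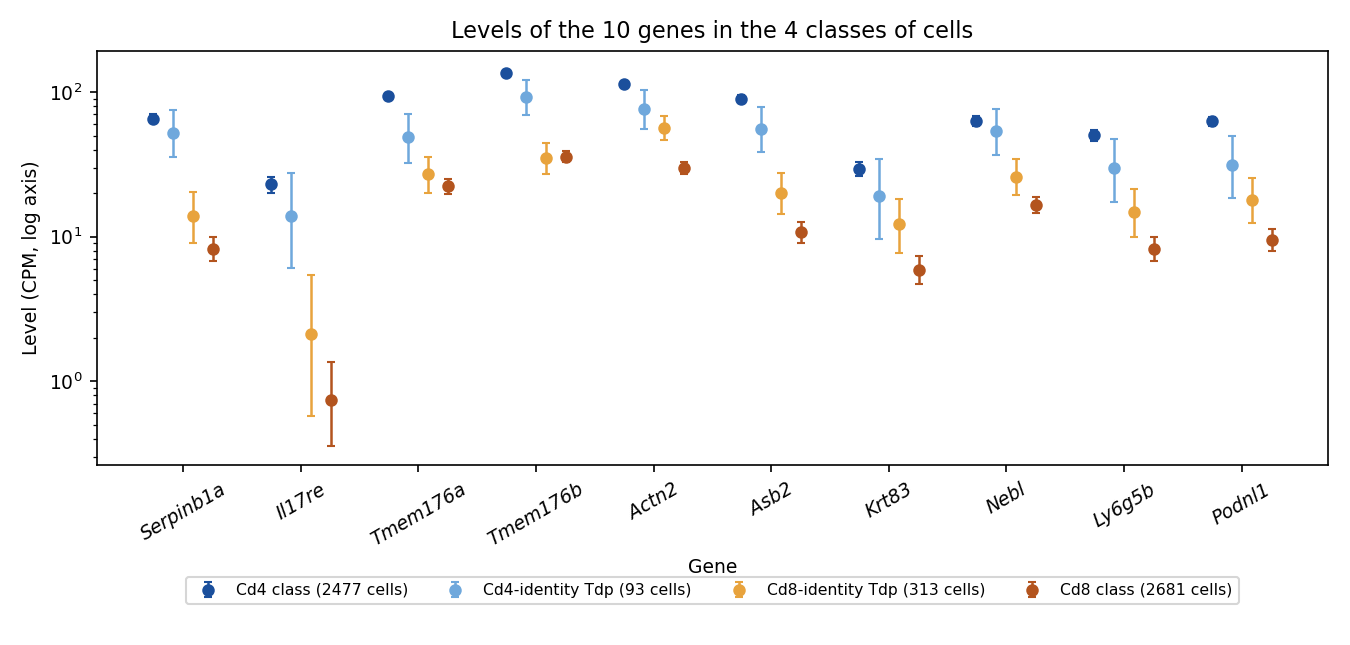
Level of each gene in CPM (log axis) in the 4 classes of cells, with exact 95% Poisson intervals for counting error. All 10 genes are highest in the Cd4 class, and all but Tmem176b step down through Cd4-identity Tdp and Cd8-identity Tdp to the Cd8 class.

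The 10 genes differed in how evenly they were spread over the hashtag numbers. In the Cd4 class Serpinb1a was at 58.1, 78.8, 64.8 and 66.1 CPM in numbers 1 to 4, and Il17re at 18.7, 31.9, 19.9 and 22.9 CPM. In the Cd8 class the same genes were at 10.4, 9.19, 3.92 and 12.0 CPM and at 1.90, 0.765, 0.218 and 0.687 CPM. Number 2 was the highest in the Cd4 class for both, and no Cd8 class value reached a Cd4 class value of the same gene. The share of all genes with such a gap is not given here, and the genes were chosen on this contrast.

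In the Cd4 class number 2 was also the highest for Tmem176a, Tmem176b, Actn2, Nebl, Ly6g5b and Podnl1. Its ratio to the lowest number ranged from 1.31-fold (1.09 to 1.56) for Nebl to 1.94-fold (1.25 to 3.14) for Ly6g5b. Krt83 went the other way, with 23.3 CPM in number 2 and 41.1 CPM in number 3, 1.77-fold (1.13 to 2.72). Asb2 was highest in number 4, at 103 CPM, and lowest in number 3, at 71.0 CPM.

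In the Cd8 class Tmem176a was at 49.4, 11.0, 12.0 and 34.4 CPM in numbers 1 to 4, and Tmem176b at 75, 28.8, 12.0 and 54.3 CPM. Numbers 1 and 4, the high ones, also had the most cells with macrophage or dendritic UMIs, 19.6% and 15.9% against 11.4% and 8.42% in numbers 2 and 3. Within number 1 the Cd4 class was 1.59-fold (1.28 to 1.98) higher for Tmem176a and 1.47-fold (1.23 to 1.77) for Tmem176b, the smallest ratios of the pair. In number 2 the Tmem176a ratio was 10.7-fold (7.77 to 15), and in number 3 the Tmem176b ratio was 9.67-fold (6.85 to 13.7).

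The ratio of Cd4 to Cd8 class was above 1 for each of the 10 genes within all 4 numbers, and 8 genes were higher by the rule in all 4. The share of all genes that did so is not given here. Since the genes were chosen on this contrast, nothing is read from these counts. Tmem176b in number 1 missed the 1.5-fold minimum, and Il17re in number 3, with 16 UMIs against 1, was not measured. The ratio within a number ran from 5.50-fold to 16.5-fold for Serpinb1a, from 3.08-fold to 4.73-fold for Actn2 and from 3.12-fold to 13.0-fold for Asb2. The low end for Asb2 came from number 1, where its Cd8 class level of 26.6 CPM was 3.93 times (2.49 to 6.31) that of number 3.

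**Figure D2:**
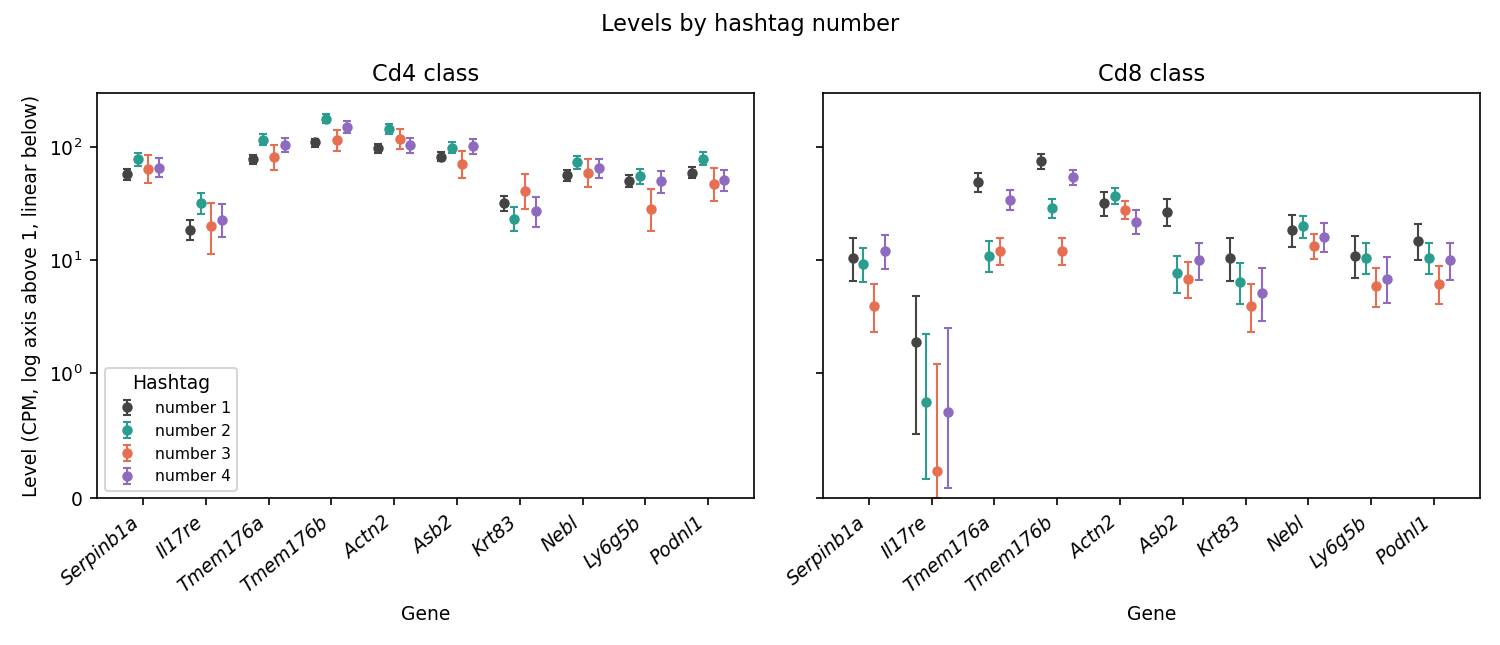
Level of each gene in CPM by hashtag number, in the Cd4 class (left) and the Cd8 class (right), with exact 95% Poisson intervals (log axis above 1 CPM, linear below). In the Cd4 class the highest and lowest numbers differ by at most 1.94-fold (Ly6g5b), and in the Cd8 class number 1 stands high for Tmem176a (49.4 CPM), Tmem176b (75 CPM) and Asb2 (26.6 CPM).

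Cd4-identity Tdp cells carried the genes at levels between the Cd4 class and Cd8-identity Tdp cells. The genes were chosen on a contrast of Cd4 and Cd8 cells of the same table, so the count that follows is a description. Of the 9 genes measured, 6 were higher in Cd4-identity Tdp than in Cd8-identity Tdp, against 3.09% of all genes measured. They were Serpinb1a at 52.4 against 13.8 CPM, 3.79-fold (2.17 to 6.67), Asb2 at 2.77-fold (1.67 to 4.55), Tmem176b at 2.64-fold (1.80 to 3.85), Nebl at 2.08-fold (1.28 to 3.33), Ly6g5b at 2.00-fold (1.02 to 3.77) and Tmem176a at 1.80-fold (1.10 to 2.92). Of the 32 Asb2 UMIs in Cd4-identity Tdp, 26 came from hashtag number 2, and without that number the log2 ratio of Asb2 was -0.084. The count was 2 without cells with UMIs of other cell types, a filter that took out 66.1% of all cells, and 1 when at least 100 UMIs were asked for. Il17re had 8 UMIs in the first and 4 in the second and so was not measured, with 14.0 CPM (6.03 to 27.5) and 2.13 CPM (0.579 to 5.45).

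The remaining 3 did not differ by the rule. Actn2 was at 76.9 and 56.9 CPM, 1.35-fold (0.929 to 1.94), Krt83 at 1.57-fold (0.692 to 3.36) and Podnl1 at 1.74-fold (0.925 to 3.17). Cells with transcripts from 2 Trbv genes (the variable segments of the receptor beta chain), which a droplet with 2 T cells would also show, made up 38.7% of Cd4-identity Tdp and 19.2% of Cd8-identity Tdp. Without them 4 genes were higher, Serpinb1a (3.51-fold, 1.58 to 7.58), Asb2 (5.06-fold, 2.81 to 9.13), Tmem176b (2.48-fold, 1.5 to 4.01) and Nebl (2.51-fold, 1.31 to 4.63). The Asb2 value again includes hashtag number 2.

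Against the Cd4 class, 4 of the 10 genes were lower in Cd4-identity Tdp, where 2.92% of all genes measured were lower. Podnl1 was 1.99-fold lower (1.25 to 3.39) at 31.4 against 62.7 CPM, Tmem176a 1.91-fold (1.31 to 2.88), Ly6g5b 1.69-fold (1.05 to 2.93) and Asb2 1.60-fold (1.13 to 2.36). Serpinb1a, at 52.4 against 65.4 CPM, was not among them. The count changed with the cells and the rule used. Without cells with 2 Trbv genes, which were 9.29% of the Cd4 class, Tmem176a remained lower (35.7 against 94.1 CPM) and the other 3 did not, and in cells thinned to 2000 UMIs each none was. None was at a 2-fold minimum, and 1 was without cells with UMIs of other cell types. Leaving out hashtag number 3, with 9 Cd4-identity Tdp cells of which 77.8% had 2 Trbv genes, left 2.

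Cd8-identity Tdp cells had more of 7 of the 9 genes measured than the Cd8 class, against 2.07% of all genes measured. Actn2 stood at 56.9 CPM (46.6 to 68.7) against 29.9 CPM, 1.90-fold (1.52 to 2.36). Krt83 was 2.07-fold higher (1.24 to 3.32), Podnl1 1.90-fold (1.26 to 2.78), Asb2 1.87-fold (1.27 to 2.69), Ly6g5b 1.81-fold (1.15 to 2.77), Serpinb1a 1.68-fold (1.05 to 2.60) and Nebl 1.57-fold (1.13 to 2.14). Tmem176a and Tmem176b, at 27.1 against 22.3 CPM and 35.1 against 35.8 CPM, did not differ by the rule. Of the 7 genes, only Actn2 (1.42-fold to 2.34-fold) and Podnl1 (1.18-fold to 6.21-fold) were above 1 within all 4 hashtag numbers. Serpinb1a ran from 0.391-fold to 7.02-fold and Asb2 from 0.653-fold to 5.61-fold, so their direction differed between numbers. The share of all genes above 1 in all 4 is not given here.

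The count was 3 in cells thinned to equal depth, 4 without cells with 2 Trbv genes, 4 without hashtag number 2 and 2 without number 3. It was 1 at a 2-fold minimum, 4 with the mean of per-cell CPM and 0 without cells with UMIs of other cell types, where the log2 ratios of Asb2 (-0.36), Nebl (-0.76) and Ly6g5b (-0.19) turned sign. The median depth was 4981 UMIs in Cd8-identity Tdp and 4159 in the Cd8 class. The authors' rule for a Tdp call is unknown, so whether it favours deep cells was not tested. Without both macrophage or dendritic cells and cells with 2 Trbv genes, 3 genes were higher, Krt83 at 2.76-fold (1.59 to 4.62), Ly6g5b at 2.22-fold (1.34 to 3.54) and Actn2 at 1.84-fold (1.40 to 2.39).

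Within the Cd4 class the genes were lower in cells with a transcript of Foxp3, the factor that defines regulatory T cells. A Foxp3 UMI was found in 555 cells, called Foxp3-positive, and the other 1922 are called Foxp3-zero, which means that no UMI was counted and not that the transcript was shown to be absent. The median depth of the groups was 3345 and 3501 UMIs. All 10 genes were higher in Foxp3-zero cells, against 7.6% of the 10530 genes measured, and their median log2 ratio was 1.05 against 0.01 over all. The genes were chosen with a Foxp3-poor group of these cells in view, so this too is a description.

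Il17re stood at 28.3 CPM in Foxp3-zero and 4.59 CPM in Foxp3-positive cells, 6.17-fold (3.38 to 12.5), and was found in 9.83% and 1.80% of the cells. By hashtag number its Foxp3-zero levels were 23.5, 37.9, 25.1 and 27.4 CPM, and its Foxp3-positive levels 3.81, 5.62, 0 and 7.81 CPM. The 0 stands for 45 cells and allows up to 18.1 CPM. The lowest Foxp3-zero value was above the highest Foxp3-positive value.

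Serpinb1a stood at 78.9 against 18.8 CPM, 4.20-fold (3.1 to 5.82), in 21.1% and 5.05% of the cells. Its levels in numbers 1 to 4 were 70.5, 92.0, 75.4 and 82.9 CPM in Foxp3-zero cells, and 19.8, 20.6, 24.1 and 10.4 CPM in Foxp3-positive cells. The groups did not overlap. For Il17re and Serpinb1a alike, the share of all genes with such a gap is not given here, so nothing is read from it. In Foxp3-positive cells Serpinb1a was still above its Cd8 class level of 8.21 CPM, and Il17re above its Cd8 class level of 0.739 CPM.

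The keratin gene Krt83 was 3.51-fold higher in Foxp3-zero cells (2.31 to 5.57), Actn2 2.65-fold (2.19 to 3.23) and Nebl 2.27-fold (1.78 to 2.92). Smaller ratios were those of Tmem176b at 2.12-fold (1.81 to 2.5), Ly6g5b at 2.03-fold (1.57 to 2.66) and Tmem176a at 1.93-fold (1.60 to 2.34). Podnl1 was 1.75-fold (1.41 to 2.20) and Asb2 1.66-fold (1.39 to 2.00) higher. Asb2, with 59.3 CPM in Foxp3-positive cells, had the smallest ratio of the set.

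Within each of the 4 hashtag numbers every ratio was above 1, but not every one met the rule. The share of all genes with such ratios is not given here, so nothing is read from the counts by number. Serpinb1a was higher by the rule in 4 of 4 numbers, Il17re, Tmem176a, Tmem176b, Actn2, Asb2 and Krt83 in 3, Nebl and Ly6g5b in 2 and Podnl1 in 1. The intervals of several included 1, such as that of Podnl1 in number 3 (1.39-fold, 0.573 to 4.07). The Tmem176b ratio was 1.28-fold in number 1 and 7.82-fold in number 3, the widest range of the genes with UMIs in all groups. Summed dendritic cell markers moved with this comparison, at 1280 CPM in Foxp3-positive and 404 CPM in Foxp3-zero cells, with all 7 measured markers lower in the latter, and 14 of 14 proliferation genes such as Mki67 were higher there. All 10 genes were higher by the rule in Foxp3-zero cells when macrophage or dendritic cells were left out, and likewise when cycling cells were. With cells of 2 Trbv genes left out together with the macrophage or dendritic cells, 9 were, and Asb2 was at 1.44-fold (1.19 to 1.77).

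**Figure D3:**
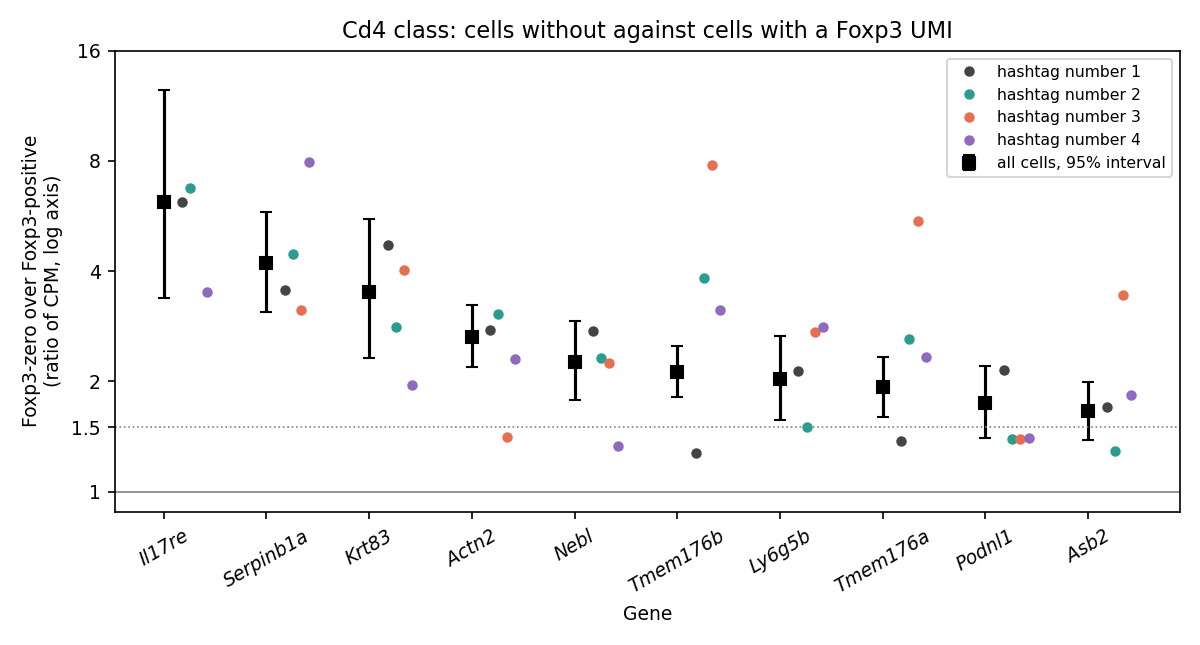
Ratio of CPM in Foxp3-zero over Foxp3-positive cells of the Cd4 class (log axis), over all cells with exact 95% intervals (squares) and within each hashtag number (circles, no intervals). All ratios lie above the line at 1, the dotted line marks 1.5-fold, and number 3 has no circle for Il17re because its Foxp3-positive cells had no UMI of it.

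The other genes of the pathways were read from lists. Of 18 measured type 17 genes, 11 were higher in the Cd4 class and 1, Csf2 (encoding GM-CSF), was lower. Il22, which encodes a cytokine of type 17 cells, was 29.5-fold higher (9.69 to 146), and Ccr6, a chemokine receptor of these cells, 5.22-fold (4.05 to 6.82). Il23r, encoding the IL-23 receptor chain, had 30 UMIs against 0 and was at least 12.6-fold higher against a floor of 3 UMIs in the Cd8 class.

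The cytokine gene Il17a itself was scarce, with 26 UMIs in 0.283% of Cd4 class cells and 0 in the other classes, at least 11.0-fold higher than the Cd8 class. The partner chain Il17ra was at 50.5 CPM in the Cd4 class and 55.9 CPM in the Cd8 class, 0.903-fold (0.807 to 1.01). Il17rd was at 1.03 and 1.03 CPM, so neither of the 2 measured relatives was called, unlike Il17re. Il17rb, with 10 UMIs against 1, and Il17rc, with 16 against 1, were below the minimum of 20 UMIs.

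Relatives of the other members mostly did not share the pattern. Among 10 measured serpin genes, 2 were higher in the Cd4 class (Serpine2 and Serpina3f) and 2 lower (Serpini1 and Serpinb6b). Of the serine protease genes listed beside Serpinb1a, the 2 measured, Gzmm and Prtn3, were lower, Gzmm at 2.15 against 19.9 CPM. Whether Serpinb1a acts on either was not tested. Of 11 measured actinin, nebulin family and filamin genes, Neb (nebulin) was 5.61-fold higher (3.85 to 8.4) and Actn1, Pdlim1 and Zyx were lower. Neb differed from Nebl in the Foxp3 comparison, where it was at 5.42 CPM in Foxp3-zero and 44.2 CPM in Foxp3-positive cells.

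None of 10 genes listed beside Asb2, other ASB family genes and partners in the ligase, was called. Of 2 measured keratins, Krt18 was higher and Krt80 lower. Of 7 measured Ly6 genes, 3 were higher and 2 lower. Skeletal muscle markers, listed because of Actn2 and Nebl, summed to 6.82 CPM in the Cd4 class and 7.10 CPM in the Cd8 class, and melanoma markers to 13.2 and 12.4 CPM.

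Regulatory T cell genes, 12 of 13 measured, and CD4 helper genes, 8 of 13, were also higher in the Cd4 class. In the Foxp3 comparison these lists and the members parted. Of 13 regulatory T cell genes 12 were lower in Foxp3-zero cells, and of the helper genes 4 were higher, Cd40lg by 6.13-fold (4.94 to 7.69), and 3 lower. Of 18 type 17 genes, 3 were higher in Foxp3-zero cells (Il22, Csf2 and Il1r1) and 4 lower (Hif1a, Il2, Maf and Stat3).

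Foxp3-zero cells of the Cd4 class were then divided by Cd40lg, which encodes the ligand by which helper T cells stimulate antigen-presenting cells, into 1013 with and 909 without a UMI. None of the 10 genes was higher or lower by the rule, against 1.57% of genes higher. The ratios ran from 1.02-fold (0.863 to 1.2) for Nebl to 1.42-fold (1.11 to 1.83) for Krt83, with Serpinb1a at 1.19-fold (1.02 to 1.40). Intervals left out 1 for Serpinb1a, Tmem176a, Tmem176b, Asb2, Krt83, Podnl1 and Ly6g5b, all in the direction of more in Cd40lg-positive cells.

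Cycling cells had lower levels of most of the genes per UMI counted. Of the Foxp3-zero cells, 247 had at least 3 UMIs of proliferation genes and 1675 did not. In the former 8 of the 10 genes were lower, against 12% of genes lower. Il17re stood at 11.1 against 34.3 CPM, 3.09-fold lower (2.02 to 4.93), Tmem176a at 46.3 against 125 CPM, 2.70-fold lower (2.19 to 3.36), and Serpinb1a at 36.1 against 93.9 CPM, 2.60-fold lower (2.05 to 3.33). Asb2 (76.9 against 106 CPM) and Podnl1 (59.3 against 72.9 CPM) did not differ by the rule. By cells the groups were alike, with a median of 2 of the 10 genes found in both. At least 5 genes were found in 11.7% of cycling cells and 11.3% of the others. Cycling cells had a median of 7634 UMIs against 3359, and the part of depth in these levels and shares was not tested.

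Single cells were then scored for how many of the 10 genes had a UMI. In the Cd4 class 46.2% of cells (44.2 to 48.2) had a UMI of at least 2 of the 10 genes, against 8.62% (7.58 to 9.74) of the Cd8 class, 40.9% (30.8 to 51.5) of Cd4-identity Tdp and 21.7% (17.3 to 26.7) of Cd8-identity Tdp. At 2000 UMIs per cell, which leaves out shallower cells and keeps 2245 of the Cd4 class, 2500 of the Cd8 class, 89 of Cd4-identity Tdp and 309 of Cd8-identity Tdp, the shares were 32.0%, 3.28%, 20.2% and 6.15%. The most found in a cell was 9 of the 10, in 1 cell of the Cd4 class.

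The number expected in each cell was computed from the shares of the single genes in 10 bins of total UMIs, as if the genes were found independently. At least 2 genes were found in 1144 Cd4 class cells where 1350 were expected, and in 231 Cd8 class cells where 203 were expected. The share of Cd4 class cells with 2 or more was thus not above that of independent genes. At least 5 genes were found in 238 Cd4 class cells where 73.6 were expected, and none in 745 cells where 422 were expected. Both ends of the range thus held more cells than independent genes would give. Since Foxp3-positive cells are low in all of the genes, the same was computed within each group. At least 5 were found in 218 Foxp3-zero cells with 86.2 expected, and none in 451 with 238 expected. In Foxp3-positive cells the counts were 20 with 2.68 expected and 294 with 248 expected.

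**Figure D4:**
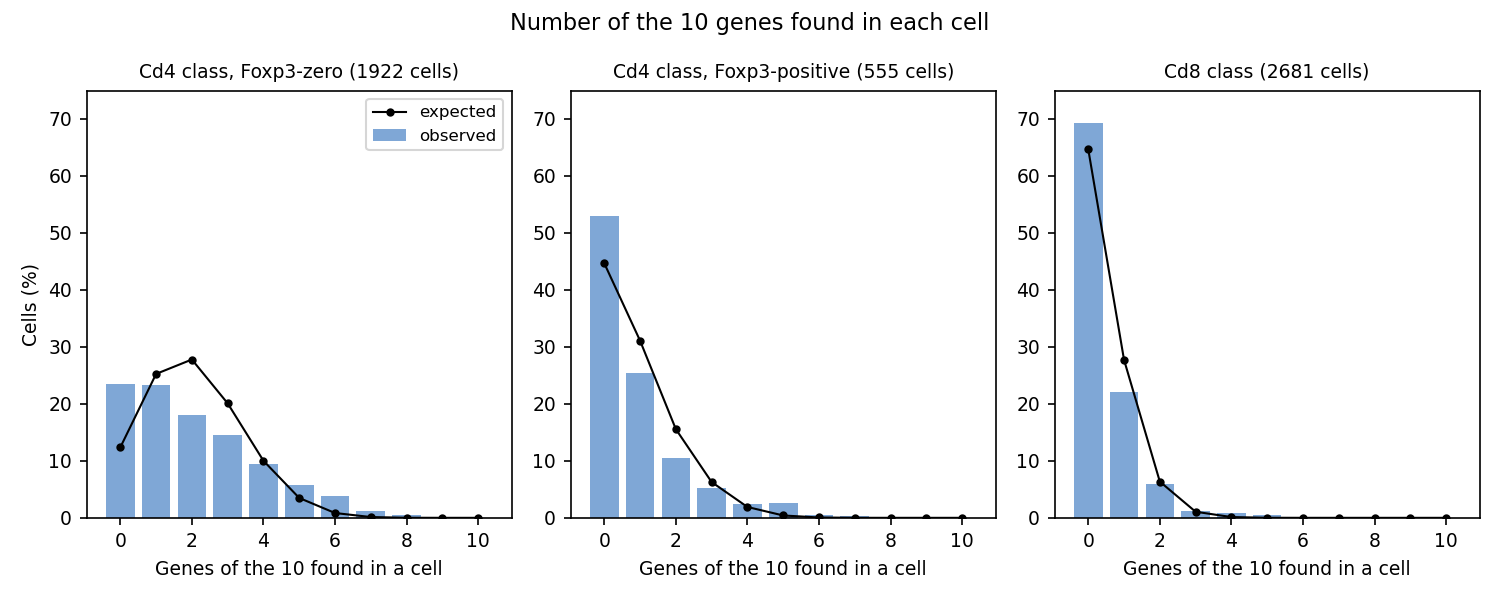
Share of cells (%) with a given number of the 10 genes found, observed (bars) and expected from the single genes in bins of depth (line), in Foxp3-zero and Foxp3-positive cells of the Cd4 class and in the Cd8 class. In Foxp3-zero cells 451 cells had none against 238 expected, and 218 had 5 or more against 86.2 expected.

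Among the 45 pairs of genes, 44 were found in the same cell more often than expected in the Cd4 class, and 15 at least 1.5 times as often with a Poisson interval above 1. Tmem176a and Tmem176b led with 328 cells against 95.7 expected, 3.43 times (3.07 to 3.82). Of Tmem176a-positive cells 74.5% (70.2 to 78.6) had Tmem176b, against 8.98% (7.78 to 10.3) of the others. Their Pearson correlation over the 2477 cells was 0.66, and the next highest of any pair was 0.30, as a description in which cells share 1 library. The overlap of the neighbouring genes on the genome applies to this pair.

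Il17re was found with Tmem176a in 104 cells (38.2 expected, 2.72 times), with Tmem176b in 119 (44.5 expected, 2.67 times), with Serpinb1a in 85 (38.7 expected, 2.20 times) and with Nebl in 90 (43.8 expected, 2.05 times). Of Il17re-positive cells 42.7% (35.7 to 49.9) had Serpinb1a, against 15.3% (13.9 to 16.9) of the others, at median depths of 3727 and 3459 UMIs. Il17re was not found with every member. With Asb2 there were 49 cells with 48.6 expected and with Krt83 19 with 18.6 expected, both at the level of independent genes.

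The pairs fell into blocks, a grouping made after the ratios had been seen and so given without a test. Among Serpinb1a, Il17re, Tmem176a, Tmem176b, Actn2 and Nebl, 14 of 15 pairs were above expectation by the rule, with a median of 1.82 times. The exception, Actn2 with Nebl, was at 1.47 times (1.28 to 1.67). Among Asb2, Krt83, Ly6g5b and Podnl1, 0 of 6 pairs were above by the rule, with a median of 1.39. Between the groups 1 of 24 was, Il17re with Ly6g5b at 1.66 times (1.25 to 2.15), with a median of 1.23. In cells thinned to 2000 UMIs the contrast was smaller, with 14 of 15 pairs above among the 6 genes (median 1.86), 4 of 6 among the other 4 genes (median 1.66) and 4 of 24 between the groups (median 1.19).

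In Foxp3-zero cells alone 9 pairs were above by the rule, all 9 within the block of 6 genes, whose median was 1.65 there, against 1.15 between the groups. By hashtag number the median within the block of 6 was 1.78, 1.64, 2.22 and 1.82 in numbers 1 to 4, and between the groups 1.23, 1.24, 1.33 and 1.36. These are the cells on which the grouping was made, so the values show spread and are no support for it.

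**Figure D5:**
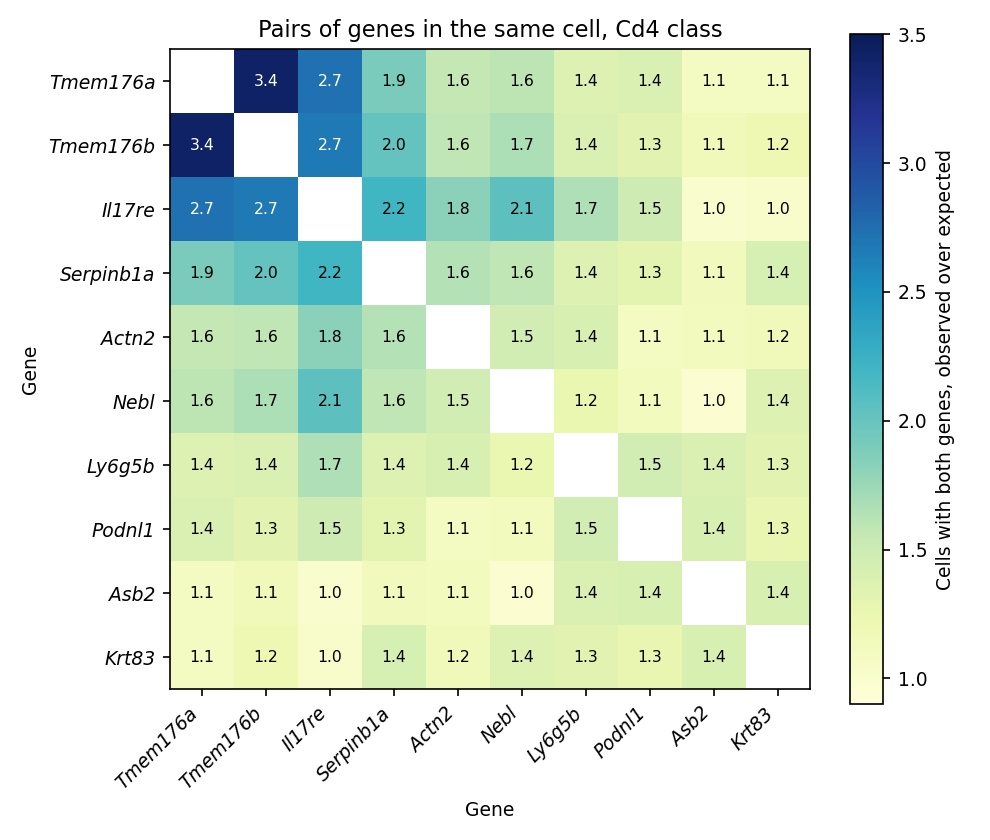
Cells of the Cd4 class with a UMI of both genes of a pair, observed over expected (colour and printed ratio, rounded to 1 decimal). The 6 genes at the upper left reach 3.4 for Tmem176a with Tmem176b, and pairs of Asb2 or Krt83 with these 6 lie between 0.98 and 1.42.

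In the Cd8 class 12 of 23 pairs with at least 5 cells expected were above by the rule. Tmem176a with Tmem176b was the highest of them, with 74 cells against 10.5 expected, 7.04 times (5.52 to 8.83). Without macrophage or dendritic cells 12 pairs could be assessed and 7 were above. Tmem176a with Tmem176b was no longer among those that could be assessed, while Actn2 with Nebl, at 2.05 times (1.51 to 2.72) in all Cd8 class cells, stayed above. Over all Cd8 class cells, macrophage or dendritic ones included, at least 4 of the 10 genes were found in 38 with 4.1 expected, 9.27 times. In the Cd4 class at least 4 were found in 431 cells with 262 expected, 1.65 times. At least 5 were found in 17 Cd8 class cells with 0.384 expected, 44.2 times, against 3.23 times in the Cd4 class. These excesses over expectation were thus larger in the Cd8 class, on few cells.

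Among 6715 other genes found in at least 5% of Cd4 class cells, those like the mean of the members over cells included Ckb (Pearson correlation 0.36), Ltb4r1 (0.31), Cxcr6 (0.27), Id2 (0.24), Emb (0.23), Mmp25 (0.23), Aprt (0.21), Ucp2 (0.21) and Cd40lg (0.20). Ckb encodes the brain-type creatine kinase, Ltb4r1 a receptor for leukotriene B4, Cxcr6 a chemokine receptor of tissue T cells and Id2 an inhibitor of E proteins. The lowest were Ikzf2 (-0.32), Tnfrsf9 (-0.29), Pglyrp1 (-0.27), Tnfrsf18 (-0.27) and Tnfrsf4 (-0.27), of which Ikzf2, Tnfrsf9 and Tnfrsf18 are on the regulatory T cell list. The cells share 1 library and differ in depth, and in sparse counts correlations of this size are a description only.

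Taken alone, Serpinb1a was most like Ckb (0.22), Ltb4r1 (0.19), Emb (0.18), Cxcr6 (0.15) and Mmp25 (0.15), and Il17re was like Ckb (0.23), Ltb4r1 (0.20), Vax2 (0.14) and Emb (0.13). Both lists thus open with Ckb and hold Ltb4r1 and Emb. Ckb stood at 111 CPM in the Cd4 class and 54.6 CPM in the Cd8 class, and Ltb4r1 at 76.1 and 27.1 CPM, smaller gaps than those of Il17re. In Foxp3-zero and Foxp3-positive cells Ckb was at 126 and 58.8 CPM. Ltb4r1 was at 71.8 and 91.0 CPM, higher in Foxp3-positive cells, unlike the members.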

How the data were processed

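Gene counts of 1 droplet library were used as deposited, the authors' unnormalized UMI counts, with their annotation of class and hashtag number. Per the submitters' processing notes, which give no role or order, the build was mm10 and the tools included Seurat 3.2.3 and Cell Ranger 3.1.0. The sources used here do not say how the authors filtered cells, treated doublets or called classes. Libraries of hashtags and T cell receptors, and an antibody table on the same 5564 barcodes, were not analysed here.

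In computing CPM, 117 receptor genes of T and B cells (0.325% of UMIs) were left out. A pseudocount of 5 CPM entered log2 ratios, and folds had none. Co-detection used cells with a UMI of both genes over the number expected in 10 depth bins. Likeness was the Pearson correlation of ln(1 + UMIs per 10000) over cells. Named genes were all members, the 10 most and 5 least like their mean, the 5 most like Serpinb1a and Il17re, and the highest and lowest called genes of the lists, with reference genes, and others named to complete a count, except 1 gene that, with the comparison made by it and 1 of 3 motifs searched, is not reported here. Members, lists and comparisons were chosen with earlier results of these data known. Doublets were not removed, and leaving out cells in which 2 Trbv genes had 2 or more UMIs each was an alternative. Ratios, intervals and expected pairs were tested on simulated data. Sequences came from RefSeq tables, with genes matched by symbol. Python 3.11.15, scipy 1.17.1, pandas 2.3.3 and edgeR 4.0.16 (for TMM scaling) were used. Total UMIs were 10733467 in the Cd4 class, 574490 in Cd4-identity Tdp, 13567317 in the Cd8 class and 1887857 in Cd8-identity Tdp, so the values of Cd4-identity Tdp are the least precise.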

Additional observations from a re-analysis of the deposited data

How the results depend on the processing

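The counts of members higher in the Cd4 class than in the Cd8 class (10 in every alternative run) and in Foxp3-zero than in Foxp3-positive cells (7 to 10) differed by at most 1.5 times from the 10 reported. The Tdp counts did not. For Cd4-identity over Cd8-identity Tdp, 6 became 1 when at least 100 UMIs were asked for, and 2 without cells with UMIs of other cell types. For Cd4-identity Tdp below the Cd4 class, 4 became 0 in thinned cells and 0 at a 2-fold minimum, 1 without other cell types, 1 without cells with 2 Trbv genes and 2 without hashtag number 3. For Cd8-identity Tdp above the Cd8 class, 7 became 4 with the mean of per-cell CPM, 3 in thinned cells, 1 at a 2-fold minimum, 0 without other cell types, 4 without cells with 2 Trbv genes, 4 without hashtag number 2 and 2 without number 3. The filter on other cell types took out 66.1% of the cells. Its lists include genes that T cells also express, such as Ccr2 and Ly6c2, and their part in this share was not tested. A stricter filter on macrophage and dendritic UMIs alone, chosen after seeing the data, took out 8.93%. It gave 10, 5, 5, 6 and 10 for the 5 counts. Their order is Cd4 over Cd8, between Tdp classes, Cd4-identity Tdp, Cd8-identity Tdp and Foxp3.

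Single log2 ratios changed sign for Asb2 between the Tdp classes without hashtag number 2 (-0.084). Against the Cd4 class, Cd4-identity Tdp turned for Ly6g5b without other cell types (0.25) and for Asb2 without cells with 2 Trbv genes (0.035). Against the Cd8 class, Cd8-identity Tdp turned for Ly6g5b in thinned cells (-0.49) and, without other cell types, for Asb2 (-0.36), Nebl (-0.76) and Ly6g5b (-0.19). The cause was not tested. Pairs above expectation numbered 15 to 22 under the alternatives other than Foxp3-zero cells alone, which gave 9. The share of Cd4 class cells with at least 2 members was 32.0% in thinned cells and 53.3% in Foxp3-zero cells, against 46.2%. No paired analysis was possible because the samples are libraries of 1 pool and no result compares samples.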
